A study of Mus musculus with 2 samples.

Results

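The genes described here are 40 mouse genes of the mitotic spindle and the kinetochore, out of 21911 protein-coding genes of the annotation, and the data are their open chromatin in blood neutrophils. They were chosen from measured values of the same peak lists, namely their promoter peaks, the rank of the promoter signal and the distal peaks nearby, so those values are given below as a description and without a test. All 40 symbols matched the annotation: Nuf2, Ndc80, Spc24, Spc25, Knl1, Zwint, Cenpa, Oip5, Cenpk, Cenpn, Cenpe, Cenpf, Bub1, Bub1b, Bub3, Mad2l1, Ttk, Cdc20, Plk1, Plk4, Aurka, Cdk1, Ccnb1, Ccnb2, Aurkb, Incenp, Birc5, Cdca8, Kif11, Kif20a, Kif23, Kif2c, Kif4, Tpx2, Nusap1, Hmmr, Dlgap5, Prc1, Anln and Top2a. The series held 1 group of 2 libraries, replicates 1 and 2, each from 50000 neutrophils taken from peripheral blood, and the mice were adult C57BL/6J of 5 to 6 weeks. The labels name no treatment, transgene or second cell type. Open chromatin was mapped by ATAC-seq, in which a transposase places sequencing adapters into accessible DNA. Both libraries carry the same donor record and separate biosample records, and whether separate mice gave the cells is not stated, so the spread between replicates may be technical.

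In dividing cells the kinetochore is the protein plate that ties each centromere to spindle microtubules, and the checkpoint proteins on it hold back anaphase until every chromosome is attached. The transcripts of these genes rise in G2 and M phase. Their promoters are known for the cell cycle homology region (CHR), bound by the MuvB complexes, which repress in DREAM with p130 or p107 and activate with B-MYB or FOXM1, and for CCAAT boxes bound by NF-Y. Mature blood neutrophils have left the cell cycle.

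The promoter sequences below are shown because the same short strings recur in them at a similar place. Nusap1 with Oip5, Nuf2 and Tpx2 had the 3 strongest promoter regions of the 40 genes, Ccnb2 and Cdk1 had middling ones, and Plk1 and Ndc80 had the weakest. The last 4 genes were added after their values were seen. Each sequence runs in the direction of the named gene and reaches 149 bases to either side of the summit of its region in the list pooled over both replicates, stopping 50 bases past the last start site inside it. The bases are those of the RefSeq genome on build GRCm38.p6. Capitals mark CHR strings, TTTGAA or TTCGAA, and CCAAT on either strand (the reverse of TTTGAA reads TTCAAA, and that of CCAAT reads ATTGG).
Nusap1 and Oip5 (chr2:119618431-119618729, forward strand): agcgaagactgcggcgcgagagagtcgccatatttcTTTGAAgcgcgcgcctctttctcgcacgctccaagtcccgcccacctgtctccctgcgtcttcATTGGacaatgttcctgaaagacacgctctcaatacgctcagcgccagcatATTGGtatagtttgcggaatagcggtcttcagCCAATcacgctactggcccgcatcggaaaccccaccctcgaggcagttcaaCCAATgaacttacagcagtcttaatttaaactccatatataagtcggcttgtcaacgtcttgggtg
Nuf2 (chr1:169531386-169531684, reverse strand): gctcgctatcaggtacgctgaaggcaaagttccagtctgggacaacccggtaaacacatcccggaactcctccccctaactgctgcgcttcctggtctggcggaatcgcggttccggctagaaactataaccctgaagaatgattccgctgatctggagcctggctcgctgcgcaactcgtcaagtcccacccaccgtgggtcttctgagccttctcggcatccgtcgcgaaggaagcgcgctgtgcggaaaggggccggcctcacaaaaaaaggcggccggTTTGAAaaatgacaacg
Tpx2 (chr2:152847747-152848045, forward strand): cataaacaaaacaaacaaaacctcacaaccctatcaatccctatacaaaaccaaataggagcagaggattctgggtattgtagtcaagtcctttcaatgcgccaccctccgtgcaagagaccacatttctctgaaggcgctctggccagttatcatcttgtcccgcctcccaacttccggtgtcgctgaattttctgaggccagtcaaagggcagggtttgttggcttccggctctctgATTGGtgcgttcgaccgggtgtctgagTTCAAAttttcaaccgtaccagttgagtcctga
Ccnb2 (chr9:70421497-70421758, reverse strand): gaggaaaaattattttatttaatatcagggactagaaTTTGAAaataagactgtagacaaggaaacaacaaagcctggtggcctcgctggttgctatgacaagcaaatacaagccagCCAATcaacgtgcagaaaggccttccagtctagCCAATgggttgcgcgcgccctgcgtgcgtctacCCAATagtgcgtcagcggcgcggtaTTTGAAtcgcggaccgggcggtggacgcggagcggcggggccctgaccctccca
Cdk1 (chr10:69352853-69353124, reverse strand): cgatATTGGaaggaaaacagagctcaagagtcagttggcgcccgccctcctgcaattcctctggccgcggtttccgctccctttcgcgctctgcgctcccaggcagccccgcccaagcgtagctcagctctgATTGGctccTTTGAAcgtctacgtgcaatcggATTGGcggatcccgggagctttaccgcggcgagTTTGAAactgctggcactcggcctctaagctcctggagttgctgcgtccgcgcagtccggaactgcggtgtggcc
Plk1 (chr7:122159261-122159557, forward strand): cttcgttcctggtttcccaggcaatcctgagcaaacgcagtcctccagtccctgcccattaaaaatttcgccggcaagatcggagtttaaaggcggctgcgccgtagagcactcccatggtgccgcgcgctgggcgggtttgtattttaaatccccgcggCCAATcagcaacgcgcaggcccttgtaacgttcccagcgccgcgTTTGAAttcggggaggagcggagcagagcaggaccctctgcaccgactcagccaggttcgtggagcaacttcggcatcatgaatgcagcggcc
Ndc80 (chr17:71526740-71526973, reverse strand): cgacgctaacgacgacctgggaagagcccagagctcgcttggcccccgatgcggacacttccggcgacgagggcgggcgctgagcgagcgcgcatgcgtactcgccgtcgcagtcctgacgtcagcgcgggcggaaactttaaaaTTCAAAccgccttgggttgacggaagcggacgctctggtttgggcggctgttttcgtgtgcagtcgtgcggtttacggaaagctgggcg
Each of these 7 windows holds 1 or 2 CHR strings, and each holds one near an annotated start of the named gene or, for Nusap1, of its neighbour. Since the windows are shown for these strings, that count is no result. At 11 of the 40 genes no CHR string lies within 150 bp of the summit, and none of those genes is printed here. In the window shared by Nusap1 and Oip5, 4 CCAAT boxes lie between the start sites, and the CHR string lies at the start of Oip5, which is read from the other strand. Ccnb2 and Cdk1 hold 3 CCAAT boxes each, Tpx2 and Plk1 hold 1, and Nuf2 and Ndc80 hold none.

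Nearly all of the 40 promoters were open in both libraries. A promoter counts as open when a region of the list overlaps 1 kb on either side of any annotated start site. In replicate 1, 39 of 40 were open, where 47.1% of all genes were, and in replicate 2, 39 of 40, where 40.3% of all genes were. The same 39 genes were open in both, or 97.5% (95% Wilson interval 87.1 to 99.6, counting error only), against 39.8% of all genes. In the pooled list that passed a conservative threshold on the irreproducible discovery rate (IDR), all 40 were open, against 46.7% of all genes. Because the genes were chosen on these regions, nothing is read from the difference. Of the 40 promoters, 37 were rich in CpG dinucleotides (92.5%), against 44.4% of all genes and 74.5% of genes open in both replicates. CpG-rich genes as a whole were open in both replicates in 66.8% of cases.

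Replicate 1 had 27709 regions and replicate 2 had 14548, and their read depth is unknown. The strength of a region is given below as its signal value, the authors' own peak score, whose definition is not given in the sources used here and which ranks peaks within 1 list only. Beside it stands the percentile among all promoters with a region in that list. As these are whole populations of cells, fewer cells with an open promoter and less opening per cell cannot be told apart. Cell type markers were mixed. In replicate 1 a promoter region was listed for all 10 neutrophil and all 6 B cell markers, 2 of 6 T cell, 2 of 5 NK cell, 2 of 5 megakaryocyte, 2 of 5 stem and progenitor, 1 of 6 neutrophil precursor, 1 of 5 monocyte and 0 of 6 erythroid markers. In both replicates it was listed for 4 of 10 neutrophil, 4 of 6 B cell, 1 of 6 T cell, 1 of 5 megakaryocyte and 2 of 5 stem and progenitor markers, and for 0 of the others. The precursor marker with a region in replicate 1 was Cebpe (5.23), and Mpo, Elane, Prtn3, Ctsg and Ms4a3 had no promoter region in either replicate list or the pooled list. The part of other cell types in the promoter signals below was not tested.

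The open promoters ranked high. The median signal value over the 39 genes was 17.6 in replicate 1, against 12.4 over all promoters with a region, and 18.5 in replicate 2, against 13.9. The median percentile was 87.0 in replicate 1 and 86.3 in replicate 2 (mean 86.7 ± 0.538, SD, n = 2). Among the top 10% of all promoters lay 17 of 39 in replicate 1 and 18 of 39 in replicate 2. By mean signal value over both replicates, 3 of the 10 genes with the strongest promoters were among the 40, as were 5 of the first 50 and 14 of the first 500, out of 8712 genes open in both. Nusap1 and Oip5, counted as 2 of them, share 1 region. The scores of the 2 lists were not put on a common scale before the mean was taken. Ranked by the authors' −log10 p of the region in place of the signal value, the median percentile was lower, at 82.5 in replicate 1 and 74.0 in replicate 2.

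**Figure D1:**
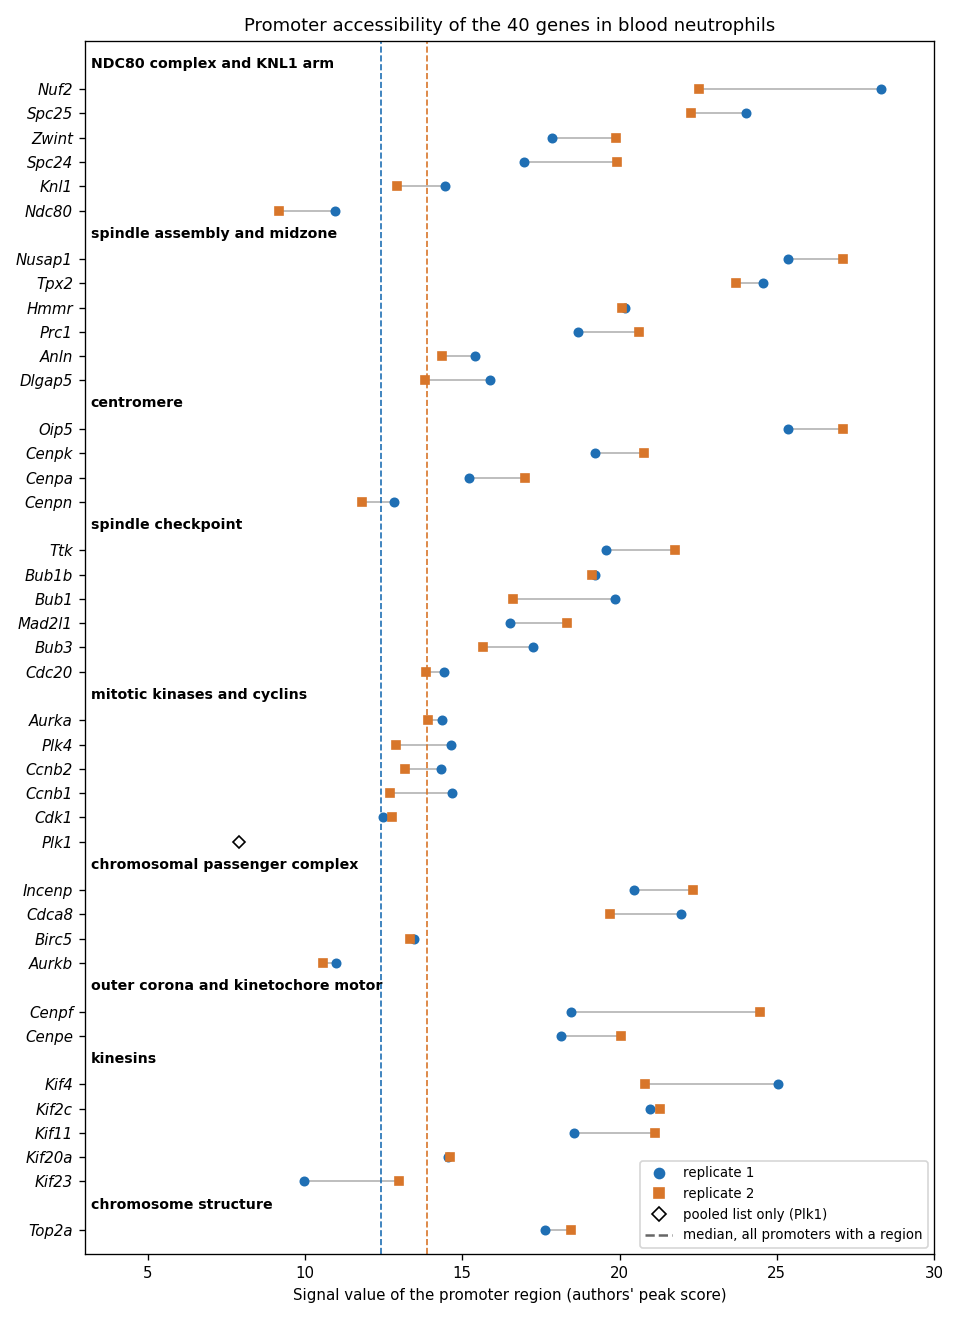
Signal value of the strongest promoter region of each of the 40 genes, grouped by role, with a circle for replicate 1, a square for replicate 2 and a line joining them. Dashed lines are the medians over all promoters with a region (12.4 and 13.9), and the diamond is Plk1, which had a region in the pooled list (7.89) and in neither replicate list.

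The NDC80 complex is the rod that grips microtubules at the outer kinetochore, and its 4 subunits ranged from the top of the promoters to well under the middle. In replicate 1 the signal value of Nuf2 was 28.3, the highest of any promoter there, and in replicate 2 it was 22.5 (mean 25.4 ± 4.08, SD, n = 2). Spc25 had 24.0 and 22.3, and Spc24 had 16.98 and 19.9. Ndc80, which carries the microtubule-binding head beside that of Nuf2, had 11.0 and 9.18, at percentiles 36.7 and 10.6. Nuf2, Spc25 and Spc24 each lay above Ndc80 in both replicates. Knl1, the scaffold that gathers checkpoint proteins, had 14.5 and 12.9, and its partner Zwint had 17.9 and 19.9.

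At the centromere, Oip5 (Mis18β), which helps to place new CENP-A, shares 1 region with Nusap1, a microtubule bundling protein of the spindle. The signal value there was 25.4 and 27.1 in the 2 replicates (mean 26.2 ± 1.24, SD, n = 2), the highest mean of all promoters. Annotated starts of Oip5 and Nusap1 lie on either side of its summit and on opposite strands, so their values are 1 measurement and not independent. Cenpa, the centromeric histone itself, had 15.2 and 16.99. Of the inner kinetochore proteins built on it, Cenpk had 19.2 and 20.8, and Cenpn had 12.8 and 11.8, under the median of all promoters in replicate 2. In the outer corona, the motor Cenpe had 18.1 and 20.03. Cenpf, a large coiled-coil protein, had 18.5 and 24.5, at percentiles 90.6 and 99.8. Its signal values had the widest spread between replicates of the 40 genes (SD 4.25, n = 2), over scores not put on a common scale.

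All 6 spindle checkpoint genes were open and above the median in replicate 1. Ttk (Mps1), the kinase at the head of the checkpoint, had 19.6 and 21.8. The pseudokinase Bub1b (BubR1) had 19.2 and 19.1, the kinase Bub1 had 19.9 and 16.6, and their partner Bub3 had 17.3 and 15.7. Mad2l1, which binds and restrains Cdc20, had 16.5 and 18.3. Cdc20, the activator of the anaphase promoting complex that the checkpoint holds back, was the lowest of the group with 14.4 and 13.9. Its value in replicate 2 lay at percentile 49.8.

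The kinases and cyclins that drive mitosis had middling promoters, within a narrow range. Over the 5 open genes of this group the mean signal value ran from 12.6 to 14.1, where it ran from 14.1 to 20.7 in the checkpoint group. Cdk1, the catalytic partner of the B cyclins, had 12.5 in replicate 1 and 12.8 in replicate 2. Ccnb1 had 14.7 and 12.7, and Ccnb2 had 14.3 and 13.2. Aurka, the kinase of the spindle poles, had 14.4 and 13.9, and Plk4, which licenses centriole duplication, had 14.7 and 12.9. In replicate 1 all 5 lay above the median of all promoters, between percentiles 50.4 and 68.6. In replicate 2, 4 of them lay below it and Aurka lay at percentile 50.3.

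Plk1, the polo-like kinase active from mitotic entry to cytokinesis, was the 1 gene of the 40 without a region in either replicate list. Its promoter region in the pooled list, chr7:122158765-122159563 around the start of this forward-strand gene, had a signal value of 7.89. In the ranked list of replicate 1 a peak at its promoter had an IDR of 0.0562, just past the threshold of 0.05 that the replicate lists use, and replicate 2 had none in its ranked list. The highest IDR among the genes inside the threshold was 0.0023 in replicate 1 (Ccnb2) and 0.00587 in replicate 2 (Cdk1). The window of Plk1 printed above holds a CHR string, a CCAAT box and the CDE-CHR tandem described below.

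The chromosomal passenger complex moves from centromeres to the spindle midzone and corrects faulty attachments, and its 4 subunits ran from a mean signal value of 10.8 to one of 21.4. The scaffold Incenp had 20.5 and 22.3, and Cdca8 (borealin) had 22.0 and 19.7. Birc5 (survivin) had 13.5 and 13.4, and the kinase Aurkb had 11.0 and 10.6, at percentiles 36.8 and 20.7. In both replicates Incenp and Cdca8 lay above Birc5, and Birc5 lay above Aurkb.

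Among the kinesins, motors that slide or shorten microtubules, Kif4 had 25.03, the highest of the group in replicate 1, and 20.8 in replicate 2. Kif2c (MCAK), which takes microtubules apart at centromeres, had 20.96 and 21.3, and Kif11 (Eg5), which pushes the spindle poles apart, had 18.5 and 21.1. Kif20a (MKLP2) had 14.6 and 14.6. Kif23 (MKLP1), which works with RACGAP1 at the midzone, had 9.96 and 13.0 and was below the median of all promoters in both replicates. Kif23 and Kif20a each lay below Kif4, Kif2c and Kif11 in both replicates.

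Of the spindle assembly and midzone proteins, Tpx2, the activator of Aurora A on the spindle, had 24.6 and 23.7 (mean 24.1 ± 0.617, SD, n = 2). Hmmr, a spindle protein that localises Tpx2, had 20.2 and 20.1, and Prc1, which bundles antiparallel microtubules, had 18.7 and 20.6. Dlgap5 (HURP) had 15.9 and 13.8, and the cytokinetic scaffold Anln had 15.4 and 14.4. Top2a, which untangles sister chromatids, had 17.6 and 18.5. None of these 6 genes or Nusap1 fell under the median of all promoters in replicate 1, and Dlgap5 alone did in replicate 2, at percentile 49.4.

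The mean signal values of the 39 open genes left a gap. Below 15 lay 15 genes, namely Ndc80, Aurkb, Kif23, Cenpn, Cdk1, Birc5, Ccnb1, Knl1, Ccnb2, Plk4, Cdc20, Aurka, Kif20a, Dlgap5 and Anln. None lay between 15 and 16, where 9.02% of all open genes lay, and 24 genes had 16 or more (61.5%, against 28.0% of all open genes). These bounds were drawn after the values were seen. The gap is in the mean alone, taken over scores not put on a common scale. Between 15 and 16 lay Cenpa, Anln and Dlgap5 in replicate 1 (15.2, 15.4 and 15.9) and Bub3 in replicate 2 (15.7). In the pooled list Birc5, Aurka, Knl1 and Kif20a lay there (15.2, 15.3, 15.5 and 15.8). All 5 open genes of the kinase and cyclin group, Aurka among them, lay in the lower set, as did Cdc20 and Aurkb. The checkpoint kinases Ttk and Bub1 lay in the upper set, with means of 20.7 and 18.2.

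**Figure D2:**
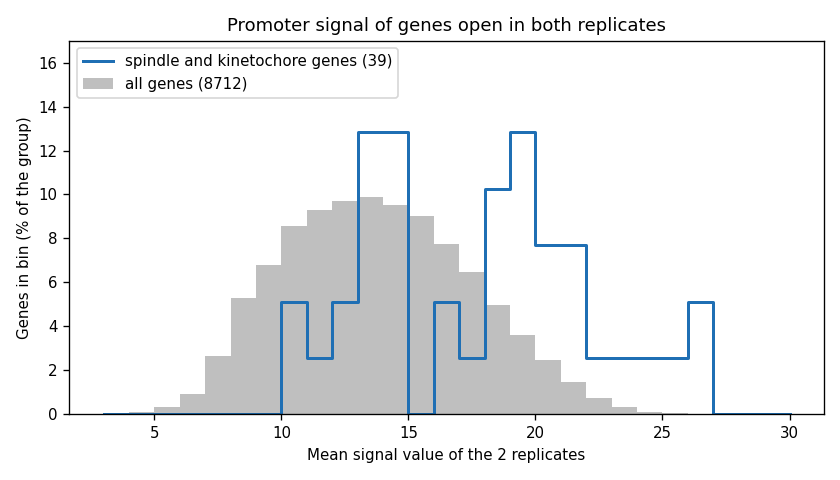
Mean signal value over both replicates, in bins of 1, for the 39 open spindle and kinetochore genes (line) and for all 8712 genes open in both replicates (bars), each as a percent of its group. By this mean no spindle or kinetochore gene lies between 15 and 16, and 24 of 39 lie at 16 or more. Within each replicate list and the pooled list some do lie between 15 and 16.

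The replicates ordered the genes alike. Spearman's rho between the replicates was 0.898 over the 39 genes and 0.817 over all 8712 genes open in both, as a description across genes that share 2 libraries. Replicate 1 had the higher value at 21 of the 39 genes and replicate 2 at 18. Over all open genes replicate 2 was the higher at 5604 and replicate 1 at 3108, a comparison of scores that were not put on a common scale.

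Among the 6 genes with the highest mean were Nusap1 and Oip5 (region chr2:119618364-119618804), Nuf2 (chr1:169531324-169531898), Tpx2 (chr2:152847707-152848385) and Kif4 (chrX:100625798-100626291). Each of these regions, given as in the pooled list, overlaps an annotated promoter. Over the 40 genes the pooled summit lay a median of 69.5 bp from the nearest start site of the gene, and 38 of 40 summits lay upstream of it. The upstream share was not taken over all promoters, so it is not read as particular to these genes. Within 100 bp lay 28 of 40 summits (70.0%), against 67.5% of 10242 promoters with a pooled region.

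Some promoters are shared with another gene. A protein-coding gene starts on the opposite strand within 1 kb at 9 of 40 genes (22.5%), against 12.3% of all genes and 24.9% of genes open in both replicates. These are the pair Nusap1 and Oip5, and Aurka beside Cstf1, Cdca8 beside 9930104L06Rik, Cenpk beside Ppwd1, Cenpn beside Cmc2, Kif20a beside Brd8, Kif4 beside Pdzd11 and Hmmr beside Nudcd2. The region of such a promoter cannot be given to 1 of the 2 genes. Over the 9 genes the median signal was 20.2 in replicate 1 and 20.1 in replicate 2, and over the other 30 open genes it was 17.1 and 17.7. Both sets lay above the medians over all promoters, 12.4 and 13.9.

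The sequence around the promoters was not used to choose the genes. Windows from 250 bases before to 50 bases after the 5′-most start site were searched on both strands for fixed strings. A match says only that these letters are present and does not show that a factor was bound. The CHR strings TTTGAA or TTCGAA were present in 22 of 40 windows (55.0%, 95% Wilson interval 39.8 to 69.3), against 18.0% of all genes, 14.2% of genes open in both replicates and 12.2% of CpG-rich genes. Within 150 bp of the pooled summit they were present at 29 of 40 genes (72.5%, interval 57.2 to 83.9), against 11.97% of 10242 promoters. Nusap1 and Oip5 share the same summit window, so its strings count for both genes here and in the summit counts below. The interval takes them as separate promoters. The intervals of the 40 genes did not overlap the shares of the other groups under either window.

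The CHR strings of these promoters lay close to the start. All 22 genes with a CHR string in the window had one within 50 bp of the 5′-most start site. Among all 3947 genes with a CHR string there, 1000 did (25.3%), and among 1235 such genes open in both replicates 317 did (25.7%). In the 25 bases after the start the string was found in 11 of 40 genes (27.5%) and in 1.10% of genes open in both replicates. Around the pooled summits, the string lay downstream of the summit in 26 of 29 genes, and it lay within 50 bp of an annotated start of the gene in 26 of 29. The other 3 are Nusap1, whose string lies at the start of Oip5, Knl1 and Kif4. Neither of these counts around the summit was taken over all promoters with a CHR string, so neither is read as particular to these genes. As 38 of the 40 summits lay upstream of the nearest start, a string at the start mostly lies downstream of the summit. Most of the genes have several annotated starts, which makes a string within 50 bp of any of them more likely. The choice of genes used no sequence, but these genes share a cell cycle function for which the CHR is known, so they are not independent draws of promoters.

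**Figure D3:**
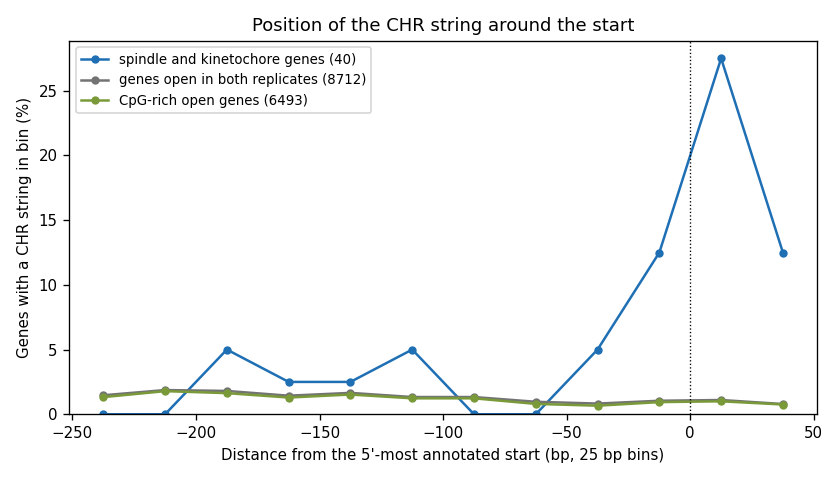
Share of genes with a CHR string in each 25 bp bin from 250 bp before to 50 bp after the 5′-most annotated start, for the 40 spindle and kinetochore genes, all 8712 genes open in both replicates and the 6493 CpG-rich ones among them. The 40 genes rise to 27.5% in the 25 bp after the start, where genes open in both replicates are at 1.10%.

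Members of every role held a CHR string near the summit. It was present in all 4 passenger complex genes, 5 of 6 kinases and cyclins, 5 of 6 spindle assembly genes, 4 of 6 checkpoint genes, 4 of 6 of the NDC80 and KNL1 group, 3 of 5 kinesins, 2 of 4 centromere genes, 1 of 2 corona genes and Top2a. The 11 genes without one near the summit were Kif20a, Zwint, Cenpk, Kif2c, Mad2l1, Cenpn, Dlgap5, Ccnb1, Cenpe, Bub3 and Spc24. The pooled signal values of the 29 genes with the string ran from 7.89 to 28.8 (median 21.1), and those of the 11 without ran from 13.0 to 24.0 (median 18.0). The ranges overlap, and both the strongest and the weakest promoters of the 40 held the string.

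A tandem of the cell cycle dependent element and the CHR (CDE-CHR), searched as GCG followed after 5 bases by TTTGAA, was rarer. It was present near the summit of Nuf2, Plk1, Cenpf, Ccnb2 and Cdk1 (12.5%), against 0.342% of 10242 promoters. In the window around the 5′-most start it was present in 4 of 40 genes, against 0.173% of all genes. The CHR part of the tandem overlaps the CHR search, so the tandem is no separate count.

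CCAAT was present in the start window of 28 of 40 genes (70.0%, 95% Wilson interval 54.6 to 81.9), against 39.0% of all genes and 42.2% of genes open in both replicates. At least 2 copies were present in 17 of 40 (42.5%), against 12.7% and 17.4%. Near the summit 21 of 40 genes held at least 2 copies (52.5%), against 17.7% of promoters with a pooled region. Top2a had most, with 6 CCAAT and 4 CHR strings near its summit, followed by Hmmr with 5 CCAAT. In the 17 genes with several copies in the start window, the closest copies were a median of 32 bp apart. At 7 of 17 (41.2%) they were 30 to 36 bp apart. The share was 12.8% over all 2778 genes with several copies, 16.9% over those open in both replicates and 17.4% over CpG-rich ones. A CHR string together with at least 2 CCAAT was present near the summit of 17 of 40 genes (42.5%), against 2.79% of promoters with a pooled region. Bub3, Mad2l1, Cenpn and Kif2c had no CHR string and not a single CCAAT near the summit. These 4 genes are 10% of the 40, against 51.8% of promoters with a pooled region.

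No other string had an interval clear of the shares of all the other groups in both windows. The E2F strings TTCCCGC or TTTGGCG were present in the start window of 2 of 40 genes, Plk4 and Cenpn (5.00%), against 7.39% of all genes and 11.2% of genes open in both replicates. Near the summit they were present at 3 genes, Plk4, Hmmr and Dlgap5 (7.5%), against 11.6%. The MYB string AACNGTT was present in none, which allows up to 8.76% (upper Wilson bound), against 4.18% of all genes. GGGCGG of the Sp factors was present in 28 of 40 (70.0%), against 43.0% of all genes and 71.7% of CpG-rich genes. CCGGAAG of the ETS family was present in 8 of 40 (20%), against 10.8% of all genes and 20.5% of genes open in both replicates. CGCATGCG of NRF1 was present in 4 of 40 (10%, interval 3.96 to 23.1), against 4.30% of genes open in both replicates. Near the summit it was present at 5 of 40 (12.5%, interval 5.46 to 26.1), against 4.48%. The interval near the summit was clear of the shares of the other groups, and that of the start window was not. AAGATGGC of YY1 was present in 2 of 40 start windows (5.00%), against 5.33% of genes open in both replicates. Of the strings of factors that act in myeloid cells, GAGGAAGT of PU.1 was present in 2 of 40 (5.00%), against 3.17% of genes open in both replicates. TTGCGCAA of CEBP, TGTGGTT of RUNX and TGANTCA of AP-1 were present in none of the 40 windows, against 0.298%, 4.02% and 4.45% of genes open in both replicates.

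Lists of other cell cycle genes, drawn up with results of these data known, were open at similar shares. Of 24 other kinetochore genes 22 were open in both replicates (39.8% of all genes were), led by Cenpq (21.3 and 21.5) and Cenpi (21.6 and 21.1) of the inner kinetochore. Cenpb, which binds the centromeric repeat box, had no region in the replicate lists. Of 20 other spindle and cytokinesis genes 19 were open, led by the kinesin Kif14 (23.3 and 23.9) and by Aspm (21.9 and 21.1), a spindle pole protein. All 21 genes of the anaphase promoting complex and separase were open, led by Pttg1 (24.6 and 19.2), the securin that restrains separase, and by the subunit Cdc26 (20.5 and 19.9). All 8 condensin genes were open, led by Smc2 (18.6 and 21.4) and Ncapg (16.7 and 19.6), as were all 22 replication genes, led by Orc1 (21.4 and 19.2) of the origin complex and Gins4 (17.7 and 22.8) of the replicative helicase.

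The ranks within these lists were lower than among the 40 genes. The median percentile of the open genes, by mean signal value, was 87.6 for the 40, 84.8 for the other spindle genes, 70.4 for replication, 70.1 for the other kinetochore genes, 66.5 for the anaphase promoting complex and 64.9 for condensin. Since the 40 were chosen by their rank, this order is a description. Of 24 regulators of these promoters, 20 were open, at a median percentile of 46.7. The NF-Y subunits Nfyb (20.2 and 23.7) and Nfyc (20.2 and 17.5) led them, and E2f6, Rb1 and Tfdp1 had no region in either replicate list. Foxm1, named for its part in this programme and outside the rule for names, had no region in replicate 1 and 6.92 in replicate 2.

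Paralogs and germline genes were counted in the same way. Of 13 paralogs of the 40 genes 6 were open (46.2%, beside 39.8% of all genes), led by Top2b (15.1 and 19.1) and Mad2l2 (13.4 and 13.5). Aurkc, Ccnb3 and Kif21a had no region in either replicate list. Of 12 germline chromosome genes 1 was open (8.33%), the meiotic cohesin subunit Stag3 (15.2 and 15.5), and Dmc1, Hormad1 and Majin had none. A protein-coding gene starts on the opposite strand within 1 kb of Stag3, and likewise of Mad2l2, Cenpq, Cdc26, Orc1 and Foxm1. Their regions cannot be given to the named gene alone.

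The strings at the summits differed between these lists in the same windows. CHR strings were present at 17 of 20 other spindle genes (85.0%), 5 of 8 condensin genes (62.5%) and 9 of 23 other kinetochore genes with a pooled region (39.1%). They were present at 3 of 21 genes of the anaphase promoting complex and separase (14.3%) and at 3 of 22 replication genes (13.6%), close to the 11.97% of all promoters with a pooled region. The E2F strings were present at 13 of 22 replication genes (59.1%), 4 of 8 condensin genes (50%), 9 of 23 other kinetochore genes (39.1%), 2 of 20 other spindle genes (10%), 2 of 21 genes of the anaphase promoting complex and separase (9.52%) and 3 of the 40 genes (7.5%). The other kinetochore genes thus held both strings at the same share, and condensin held both at shares above those of all promoters, 11.97% and 11.6%. CCAAT was present at 30 of the 40 genes (75%) and at 17 of 22 replication genes (77.3%). No difference between lists was tested.

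**Figure D4:**
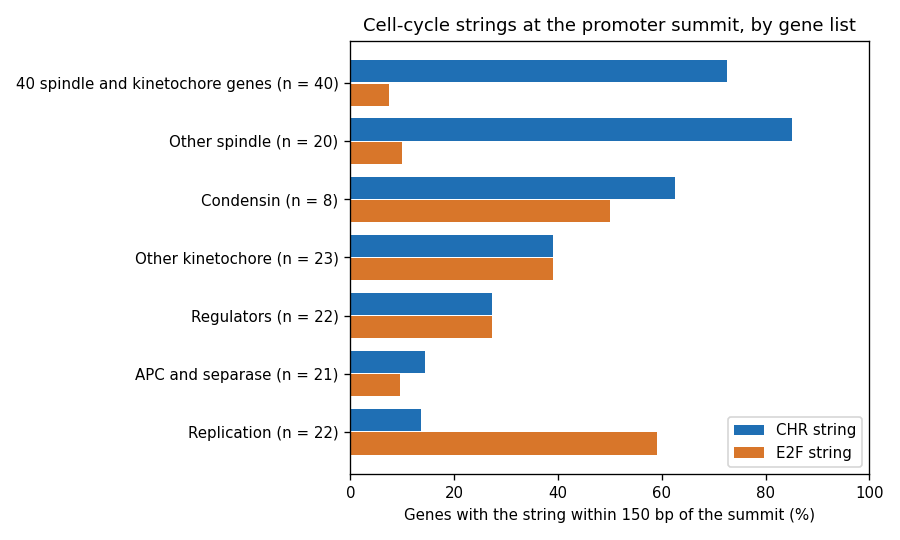
Percent of the genes of each list that hold a CHR string (blue) or an E2F string (orange) within 150 bp of the pooled promoter summit, with the number of genes that have a pooled promoter region. CHR strings are at 72.5% of the 40 genes and 13.6% of replication genes, and E2F strings at 7.5% and 59.1%.

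Distal regions were counted around each gene. A distal region was one over 1 kb from all annotated starts, and those up to 50 kb from the 5′-most start of a gene were counted for it. There were on average 1.40 per gene in replicate 1, against 1.17 over all genes and 1.64 over genes open in both replicates. In replicate 2 there were 0.475, against 0.433 and 0.619. No distal region was found at 15 of 40 genes in replicate 1 (37.5%) and at 28 of 40 in replicate 2 (70%). Over all genes these shares were 48.7% and 72.2%, and over genes open in both replicates they were lower than at the 40, at 29.7% and 60.6%. The most were 6, at Bub1b and Aurkb in replicate 1, where replicate 2 had 1 and 0. The strongest distal region lay 20517 bp upstream of Cenpe (chr3:135191759-135192407), outside any protein-coding gene, with 20.7 in replicate 1 and 17.5 in replicate 2. Incenp had one 31876 bp upstream (chr19:9931137-9931756) with 14.8 and 15.2, and Kif23 had one 36671 bp upstream, inside Paqr5 (chr9:61983253-61983622), with 16.2 and 14.0. Whether any of these regions acts on the gene it is listed under was not measured.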

How the data were processed

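ATAC-seq peak lists of 2 neutrophil libraries were used. Per the file headers, the lists are on mm10. For either replicate they are a list thresholded by IDR (irreproducible discovery rate), used as the main one, a less strict pseudoreplicated list and a ranked list, and 2 further thresholded lists pool both replicates. The deposited signal value is a score the authors' processing gave each peak, and the deposited −log10 p is the authors' own as well. Neither is defined in the labels or file headers. Not given in the sources used here are the aligner, the peak caller, their versions and any transposase shift of reads, and no read counts were used, so the depth is unknown.

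Overlapping intervals were merged into regions with the highest signal value and its summit. Genes and start sites came from GENCODE M21, and sequences from the RefSeq GRCm38.p6 genome, where coordinates count from 1. CpG-rich promoters had, over 500 bp on either side of the 5′-most start, a GC share of 0.5 or more and a ratio of observed to expected CpG of 0.6 or more. Percentiles count ties at their middle. For the pooled list the conservative one of the 2 was used. RefSeq's promoter table, an alternative window, held 34 of the 40 genes. Python 3.11.15, pandas 2.3.3, numpy 2.4.6 and scipy 1.17.1 were used, and the scripts were tested on simulated data.

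The genes, the lists, the strings and the alternatives were chosen with earlier results of these data known. With 1 group of 2 replicates and genes chosen on the readout, no test was made. The rule for names covered all 40 genes, coordinates for the 6 strongest and for any gene not open in both replicates, sequences for the 5 strongest (1 sequence and its position are not reported here), and of each other list the 2 strongest genes and up to 3 without a region, in alphabetical order. Foxm1 and the precursor markers were named outside it, as were 4 of the printed sequences. The position of the CHR string, the spacing of CCAAT copies and the counts of strings by list were added after the data were seen.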

Additional observations from a re-analysis of the deposited data

How the results depend on the processing

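The count of open genes, 39 of 40, ran from 36 to 40 over the alternatives tried. With regions at or above the median signal value of their list alone it was 36 (26.5% of all genes), without Ndc80, Plk1, Aurkb and Kif23, and with the 5′-most start alone it was 38, without Plk1 and Cdca8. The median percentile, 86.7, was 88.5 with the less strict lists, 85.7 with the 5′-most start alone, 84.6 with the conservative pooled list, 85.5 with the other pooled list, 86.0 among CpG-rich genes and 78.2 when ranked by −log10 p, and the cause was not tested. Over either replicate alone it ran from 86.3 to 87.0. The mean number of distal regions, 0.938 over both replicates (0.801 over all genes), was 2.04 with the less strict lists (1.69) and 1.68 with a window of 100 kb (1.55), and ran from 0.475 to 1.40 over either replicate alone. CHR strings were present in 22 of 40 start windows, in 29 of 40 windows at the summit and in 25 of the 34 windows of RefSeq's promoter table, against 18.0% of all genes, 11.97% of 10242 genes with a pooled promoter region and 17.3% of 16522 genes in that table. No paired analysis was possible because there is 1 group and no test. The number of replicates and the undefined score limit every value here. Replicate 2 had fewer listed regions (14548 against 27709), so an absent region there says only that none was listed.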
